A study of Mus musculus with 69 samples.

Results

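The data described are the young ovary libraries of a Zeb1 knock-in mouse, heterozygotes against wild type. Zeb1_200H (200H) females carry 1 Zeb1 allele in which the predicted miR-200a/b sites of the 3′ UTR are disrupted by point mutations, and Zeb1_WT (WT) females carry none. All were virgin C57BL/6J females of 8 to 12 weeks, taken at the first proestrus seen once staging by vaginal cytology began. The members are the 8 libraries of this comparison, 4 for each genotype, of 69 in the series, and each library came from a different mouse. The cohort was bred from more than 1 embryonic stem cell clone of the knock-in, and the labels do not tie an animal to a clone. Ovary RNA was profiled by ribosome-depleted, stranded RNA-seq, and 19621 of 55401 annotated genes had enough reads to be tested. 3 other sets of libraries are used for comparison: young ovaries of homozygotes (Zeb1_200M, 200M, n = 4, set against the same 4 WT libraries), ovaries of 28 to 36 week 200H and WT females after a breeding trial (n = 4 each), and young pituitaries of the same genotypes (4 of 200H, 3 of WT).

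ZEB1 is a zinc-finger repressor that binds E-boxes in the promoters of epithelial genes and of the miR-200 clusters, and the miR-200 miRNAs in turn repress Zeb1 by pairing with its 3′ UTR. The ovary at proestrus holds growing follicles and, in cycling animals, corpora lutea left by earlier ovulations. Corpora lutea form after luteinizing hormone from the pituitary triggers ovulation, and their cells take up cholesterol and convert it to progesterone.

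The mature miRNAs whose sites the knock-in allele lacks are shown here with the seed, bases 2 to 8, in capitals. They are RefSeq sequences on GRCm38.p6, and they group by seed into the miR-200a and miR-141 family and the miR-200b, miR-200c and miR-429 family.
miR-200a-3p: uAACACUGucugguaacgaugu
miR-141-3p: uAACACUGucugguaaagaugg
miR-200b-3p: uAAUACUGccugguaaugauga
miR-200c-3p: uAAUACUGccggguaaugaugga
miR-429-3p: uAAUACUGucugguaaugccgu
Mir200b, Mir200a and Mir429 lie on the minus strand of chromosome 4, and Mir200c and Mir141 on the minus strand of chromosome 6. In the deposited counts their primary transcripts are the genes Gm13648 and Gm15884, which overlap these hairpins on the same strand (Gm13648 also overlaps Ttll10, and Gm15884 overlaps Gm29008).

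The 8 libraries held 6744987 to 12896366 counted reads, and between 35430 and 45761 genes had a read. The library with most reads, WT replicate 3, had the fewest genes with a read, and the one with fewest reads, 200H replicate 4, had the most. On a principal component plot of 2000 genes the first axis took 52.5% of the variance and did not divide the genotypes: WT replicate 3 and 200H replicates 1 and 2 lay on 1 side and the other 5 libraries on the other. WT replicate 3 and 200H replicates 1 and 2 also had the fewest genes with a read (35430 to 38632, against 41425 to 45761 in the other 5). What lies behind this axis was not tested. In bulk tissue a lower level cannot be told apart as fewer cells of a type or less RNA per cell.

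The targeted gene did not pass the test in the ovary. Zeb1 levels in CPM, counts scaled to a common library size, were 198, 185, 220 and 195 in the WT libraries and 199, 206, 188 and 174 in the 200H libraries. The groups overlapped, and the log2 fold change of 200H over WT was −0.05 ± 0.07 (SE; edgeR quasi-likelihood test, Benjamini-Hochberg adjusted p = 0.943). In young pituitary Zeb1 was at 125 to 133 CPM in 200H against 93.8 to 96.6 CPM in WT, and rose by a log2 fold change of 0.44 (edgeR adjusted p = 0.000895). The 200H effect on Zeb1 was larger in pituitary than in ovary by 0.50 ± 0.12 (SE) on the log2 scale (edgeR interaction, adjusted p = 0.0258), a test that called 2.26% of all genes with edgeR and 4.36% with DESeq2. That difference had an adjusted p of 0.0519 without the pituitary WT library whose replicate number matches no sample label. Zeb2, the paralog that also represses epithelial genes, had 932 to 1057 CPM in WT and 728 to 925 CPM in 200H, with no overlap between the groups, and a log2 fold change of −0.22 ± 0.08 (SE) that did not pass the test (adjusted p = 0.591).

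The miR-200 primary transcripts and the epithelial genes that ZEB1 represses did not pass the edgeR test with the filter on low counts in the ovary. Gm13648, the miR-200b, miR-200a and miR-429 host transcript, lay at 1.65 to 3.24 CPM in WT and 0.830 to 4.37 CPM in 200H, and Gm15884, the miR-200c and miR-141 host, was too low to be tested, at 0.127 to 0.507 CPM in WT and 0 to 0.846 CPM in 200H. Gm13648 fell in the 200H pituitary, from 14.3 to 17.2 CPM in WT to 2.27 to 4.04 CPM in 200H (log2 fold change −2.40), and this effect differed from that in ovary (log2 difference −2.44, edgeR adjusted p = 0.0045). Epcam, a cell adhesion molecule of epithelia, was at 16.2, 11.5, 11.9 and 18.7 CPM in WT ovaries and 2.97, 11.3, 13.5 and 7.48 CPM in 200H ovaries. The lowest value was that of 200H replicate 1, and the log2 fold change of −0.71 ± 0.34 (SE) had an edgeR adjusted p of 0.730 (DESeq2 0.696). Without the filter edgeR gave 0.00877, in a fit that did not count each gene's own spread between libraries. Esrp1, an epithelial splicing regulator, had a log2 fold change of −0.12 (17.4 to 21.2 CPM in WT, 14.0 to 20.4 CPM in 200H). Rab25, a GTPase of polarised epithelium, had −0.30, and Cdh1, which encodes E-cadherin, had −0.37. In 200H pituitary Epcam, Esrp1 and Rab25 fell by 2.55, 3.29 and 3.35 on the log2 scale, and each differed between the tissues (edgeR adjusted p of the difference 0.00493, 3.18e-09 and 0.00118). Cdh1 did not pass in either test, with 0.06 in pituitary (edgeR adjusted p = 0.873) and an adjusted p of 0.714 for the difference.

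**Figure D1:**
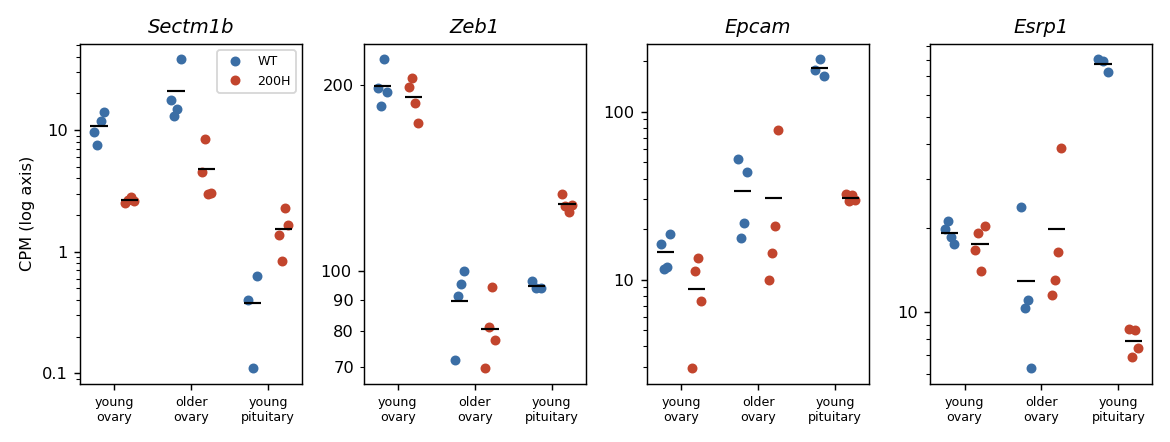
CPM on a log axis for Sectm1b, Zeb1, Epcam and Esrp1 in each WT (blue) and 200H (red) library of young ovary, older ovary and young pituitary, with the group mean as a line. Zeb1 overlaps between genotypes in both ovary cohorts and does not in pituitary, while Sectm1b is lower in 200H in both ovary cohorts and higher in 200H pituitary.

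Of the list of 42 epithelial genes, 39 were tested, none was called by edgeR or DESeq2, and the median log2 fold change was −0.12, against 0.01 over all genes tested. Krt7, a simple-epithelium keratin, and Rbm47, an RNA-binding protein of epithelia, were the 2 members at an unadjusted p under 0.05. Both were lower in 200H, which is 5.13% of those tested against 3.97% of all genes. Rbm47 was at 191 to 259 CPM in WT and 114 to 190 CPM in 200H, and the log2 difference of −0.47 ± 0.14 (SE) had an edgeR adjusted p of 0.467 (DESeq2 0.142). The edgeR fit without the filter, which did not count the gene's own spread between libraries, gave 0.00915. With 1 library left out the median of the list ran from −0.27 without 200H replicate 3 to 0.01 without 200H replicate 1. In the pituitary 21 of 36 tested members fell and none rose, where 5.72% of all genes fell and 6.56% rose (edgeR). The 30 mesenchymal genes had a median of −0.17 with 6 (20% of the list) at an unadjusted p under 0.05, all lower, where 3.97% of all genes were. DESeq2 called Sparc and Col6a1 lower, where 0.377% of all genes were. Without 200H replicate 2 the median was −0.28. The 6 include Col1a1 (1024 to 1524 CPM in WT, 651 to 1161 CPM in 200H), a collagen gene. Genes with a perfect 8-base miR-200 site (CAGTATTA or CAGTGTTA in the transcript) in an annotated 3′ UTR had medians of 0.00 for the miR-200b, miR-200c and miR-429 family (614 genes tested) and 0.01 for the miR-200a and miR-141 family (761 genes tested). The 48 tested genes within 5000000 bases of Zeb1 had a median of 0.04, and none was called.

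ZEB1 binds E-boxes of the form CAGGTA or CAGGTG, and these letters were searched on both strands in the window from 250 bases before to 50 after each RefSeq start (GRCm38.p6). Of 39 epithelial genes tested, 25 had a promoter in the table and 21 of them held a match (84.0%), against 32.5% of the 27025 genes with a promoter. The matches nearest the start of Epcam and Rab25, which fell in pituitary and did not pass in ovary, are shown with the motif in capitals, read in the direction of the gene.
Epcam, chr17:87635948-87635977, plus strand: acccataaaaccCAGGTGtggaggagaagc
Rab25, chr3:88548315-88548344, minus strand: ccacctgtgcccCAGGTGcccagcggagct
The capitals begin 19 bases before the start in Epcam and 53 in Rab25. Among the 20 genes of smallest p in the ovary, 15 had a promoter in the table and 3 held a match: Aldh1a2, Mapkapk3 and Sectm1b. Of the luteal genes described further on, 6 of 18 with a promoter in the table held one (33.3%). A match is a string of letters and was not tested as a binding site.

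A single gene was called between 200H and WT young ovaries, Sectm1b, a member of a small family of secreted and transmembrane proteins. This is 0.00510% of the 19621 genes tested at an adjusted p under 0.05 (edgeR), and 1384 genes (7.05%) were at an unadjusted p under 0.05, 778 of them lower in 200H. DESeq2 on the same counts called 95 genes (0.484%), of which 74 (0.377%) were lower and 21 (0.107%) higher in 200H. Sectm1b was among them. The edgeR count was 9 without 200H replicate 1, 4 without WT replicate 2 and 0 without any other library.

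Sectm1b (chr11:121053458-121063569, minus strand, protein coding) was at 9.58, 7.47, 11.9 and 14.0 CPM in WT and at 2.49, 2.64, 2.82 and 2.63 CPM in 200H. Every WT library was above every 200H library, and the 200H values lay close together. Mean CPM was 10.7 ± 2.82 in WT and 2.65 ± 0.135 in 200H (SD, n = 4 each). Sectm1b fell by 2.01 ± 0.22 (SE) on the log2 scale, a level 4.03-fold higher in WT (edgeR, adjusted p = 0.0164; DESeq2, 8.9e-09). Its reads numbered 59 to 145 per WT library and 19 to 26 per 200H library. With any of 6 of the 8 libraries left out its adjusted p lay between 0.0515 and 0.104, at a log2 fold change between −1.86 and −2.07. A nearby paralog, Sectm1a, named here after its values were seen, had a log2 fold change of 0.13 ± 0.42 (SE), at a mean of 2.07 CPM in WT and 2.25 CPM in 200H.

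Sectm1b was also read in the other sets of libraries. In 28 to 36 week ovaries, from other animals and another library protocol, Sectm1b was at 17.5, 13.1, 15.0 and 38.0 CPM in WT and 4.49, 8.42, 2.99 and 3.03 CPM in 200H, again with no overlap. The log2 fold change there was −2.15 ± 0.45 (SE), which edgeR did not call (adjusted p = 0.748) and DESeq2 did (adjusted p = 0.00165). The young effect minus the older effect was 0.13 ± 0.53 (SE) on the log2 scale (edgeR interaction, adjusted p = 1.0). In young 200M ovaries Sectm1b was at 1.197 to 1.84 CPM, below all 200H libraries, with a log2 fold change of −2.76 from the shared WT group (edgeR adjusted p = 0.000276). In the pituitary the direction was opposite: 200H had 0.839 to 2.27 CPM, from 10 to 23 reads, and WT 0.110 to 0.631 CPM, from 1 to 6 reads. The 200H effect differed between the tissues by 3.97 ± 0.54 (SE) on the log2 scale (edgeR interaction, adjusted p = 0.000262). Sectm1b was picked by its p in the young ovary libraries, whose effect is part of that difference. The RefSeq window around the Sectm1b start holds 1 E-box, beginning 25 bases after the start and lying in an exon of 2 annotated transcripts and outside 2 others.
Sectm1b, chr11:121063527-121063556, minus strand: ttgccagagaagCAGGTAagaagctggagc

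**Figure D2:**
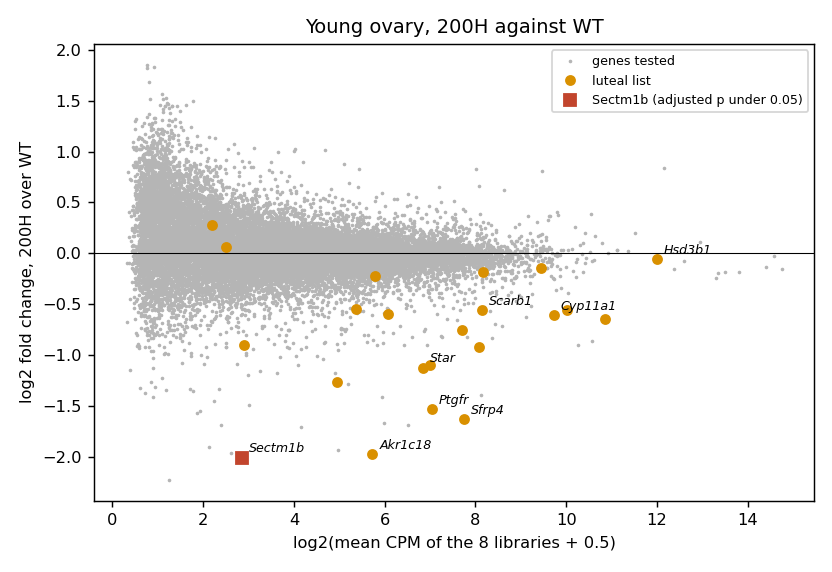
Log2 fold change of 200H over WT in young ovary against log2 of the mean CPM plus 0.5, for the 19621 genes tested (grey), with the luteal list in orange and Sectm1b as a red square. Most luteal genes lie below 0, from −0.06 for Hsd3b1 to −1.97 for Akr1c18, and Sectm1b is at −2.01.

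The next 19 genes by p did not pass the edgeR test (adjusted p from 0.0846 to 0.215), and all were among the 95 calls of DESeq2. Of the 20 genes of smallest p, 17 were lower in 200H and 3 higher, and in all 20 the WT and 200H libraries did not overlap. Such separation was found with 200H lower in 2.58% of all genes and with 200H higher in 1.45%. As p chose these 20 genes, their separation is a description. In older ovaries 18 of them were tested and 17 had the same sign (not Epdr1). Of all genes tested in both, 45.2% were below 0 there and 54.8% above. Some of the 17 were near 0, such as Tmem86a at −0.02 and Gpx3 at −0.04. In older ovaries 3 were at an unadjusted p under 0.05, Sectm1b, Serpina3c and Abhd2, where 6.59% of all genes were.

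Scarb1 (chr5:125277087-125341094), the receptor through which steroid-making cells take cholesterol from high-density lipoprotein, was at 336, 316, 352 and 338 CPM in WT and 249, 219, 243 and 193 CPM in 200H. Its log2 fold change was −0.56 ± 0.08 (SE; edgeR adjusted p = 0.0846, DESeq2 5.32e-07). Fdx1 (chr9:51943306-51963556), the ferredoxin that carries electrons to mitochondrial P450 enzymes, was at 262, 307, 257 and 214 CPM in WT and 204, 142, 144 and 124 CPM in 200H, a log2 fold change of −0.75 ± 0.14 (SE; edgeR adjusted p = 0.215). In both genes the highest 200H library lay below the lowest WT library. Acsl4, an acyl-CoA synthetase for arachidonate, had 169 to 206 CPM in WT and 112 to 139 CPM in 200H. Tmem86a, a lysoplasmalogenase, had 249 to 322 CPM in WT and 132 to 188 CPM in 200H, and Abhd2, a lipid hydrolase, had 607 to 781 CPM and 338 to 501 CPM.

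Slc25a30, a mitochondrial carrier, had a log2 fold change of −0.83 and Efhd1, a calcium-binding mitochondrial protein, of −0.77. Gpx3, a secreted glutathione peroxidase, had 1080 to 2086 CPM in WT and 711 to 977 CPM in 200H. Aldh1a2, which makes retinoic acid, had 89.8 to 118 CPM in WT and 50.3 to 74.7 CPM in 200H. The other protein-coding genes on the lower side were Bzw1, a regulator of translation (log2 fold change −0.41), Chst11, a chondroitin sulfotransferase (−0.45), Rab31, a small GTPase (−0.49), Epdr1 (−0.88) and Mapkapk3, a stress-responsive kinase (−1.01). The 3 genes on the higher side were Serpina3c, a serine protease inhibitor (15.2 to 19.8 CPM in WT, 24.1 to 46.2 CPM in 200H), Mpp3, a membrane scaffold (6.23 to 7.50 CPM and 10.5 to 12.0 CPM), and Gm38243. Of the 20, 3 cannot be read apart from a host gene on the same strand: Gm38243 lies in Kcnq5, Gm42633 in Scarb1 and Gm27505 in the nuclear RNA Neat1.

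**Figure D3:**
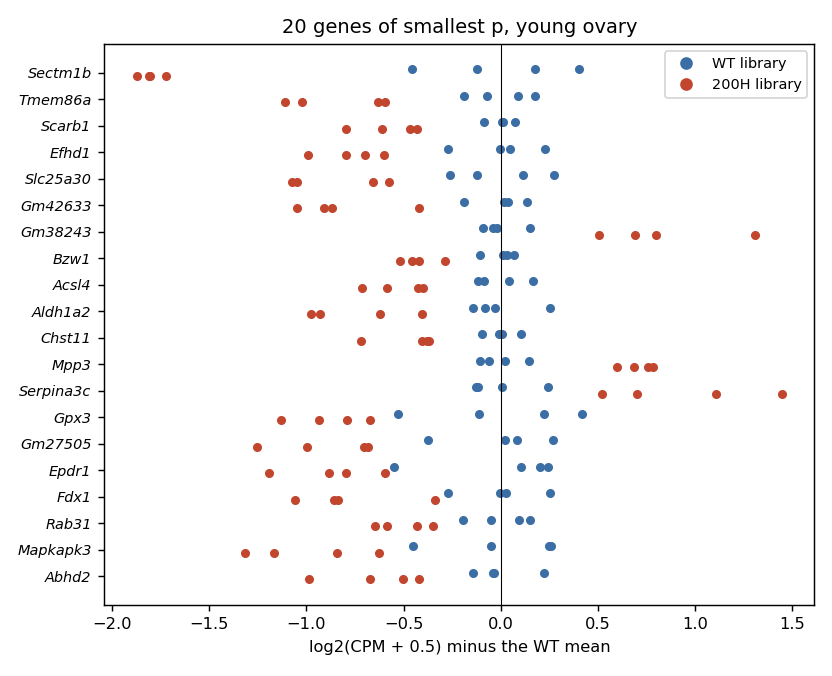
Log2 of CPM plus 0.5 minus the WT mean, per library, for the 20 genes of smallest p in young ovary (WT blue, 200H red). The 4 libraries of each genotype are separated in all 20, and the 200H points lie at the left for 17 genes and at the right for Gm38243, Mpp3 and Serpina3c.

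The list with the largest median difference was that of luteal genes. Its members were chosen with earlier results of these data known, so the counts here describe and do not test it. Of 22 genes, 21 were tested, 19 had a log2 fold change below 0, and the median was −0.61, against 0.01 over all genes. In all, 15 (71.4%) were lower in 200H at an unadjusted p under 0.05, where 3.97% of all genes were, and none was higher. None was called by edgeR with the filter on low counts. Without that filter edgeR called the 15, Akr1c18, Sfrp4, Ptgfr, Star and Cyp11a1 among them, in a fit whose prior degrees of freedom were infinite, so that each gene was given the spread of the trend and its own spread between libraries did not count. DESeq2 called 6, all lower (0.377% of all genes were): Scarb1, Fdx1, Cyp11a1, Fdxr, Prlr and Hsd17b7. In 9 of the 21 the genotypes did not overlap, all with 200H lower, as in 2.58% of all genes. The summed CPM of the list was 12820, 9853, 12670 and 12130 in WT and 9412, 9554, 9678 and 6971 in 200H, where the lowest WT and highest 200H values are close. 200H replicate 4 had the lowest sum, and the median log2 fold change was −0.55 without it. That library was the lowest for the abundant members Hsd3b1, Lhcgr and Cyp11a1. For Star, Akr1c18, Sfrp4 and Runx2 it was the highest of the 200H libraries.

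Among the genes of progesterone synthesis, Cyp11a1, the enzyme that cleaves the cholesterol side chain as the first committed step, was at 1146, 881, 1068 and 1003 CPM in WT and 812, 751, 553 and 548 CPM in 200H. The groups did not overlap, and the log2 fold change was −0.61 ± 0.12 (SE; edgeR adjusted p = 0.254, DESeq2 0.00159). Fdxr, the reductase that charges ferredoxin, had 45.2 to 51.5 CPM in WT and 26.7 to 40.3 CPM in 200H. Star, which moves cholesterol to the inner mitochondrial membrane, was at 247, 141.2, 127 and 110 CPM in WT and 43.5, 84.8, 68.8 and 86.8 CPM in 200H. Its log2 fold change was −1.12 ± 0.26 (SE; edgeR adjusted p = 0.307, DESeq2 0.159), and the highest WT value, that of replicate 1, stood well above the other 3. Hsd3b1, which completes progesterone and is also made by interstitial cells, overlapped throughout (3529 to 4527 CPM in WT, 2892 to 4692 CPM in 200H), with a log2 fold change of −0.06.

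The luteal list members Akr1c18, Ptgfr, Sfrp4 and Runx2 varied more between the 200H libraries. Akr1c18, the enzyme that inactivates progesterone as corpora lutea regress, was at 81.5, 106, 77.0 and 68.1 CPM in WT and 1.66, 12.3, 13.7 and 57.3 CPM in 200H. Replicate 4 was near the WT range and replicate 1 far from it, and the log2 fold change of −1.97 ± 0.59 (SE) had an adjusted p of 0.466. Ptgfr, the receptor for the prostaglandin that starts luteal regression, was at 203, 127, 237 and 214 CPM in WT and 16.5, 124, 19.3 and 105 CPM in 200H. Sfrp4, a secreted Wnt antagonist, was at 361, 252, 341 and 346 CPM in WT and 15.8, 182, 30.3 and 185 CPM in 200H. Runx2, a transcription factor of luteinizing cells, was at 217, 152, 173 and 158 CPM in WT and 23.8, 109, 38.8 and 151 CPM in 200H. In Ptgfr, Sfrp4 and Runx2 the 200H libraries fell into a low pair, replicates 1 and 3, and a higher pair, replicates 2 and 4, all below the lowest WT library. Per a legend of the study, a 200H mouse of this group had no corpora lutea detected in its other ovary, and the labels do not say which library came from that mouse. With any single library left out, 13 to 16 luteal genes were lower at an unadjusted p under 0.05. With all libraries in, the log2 fold changes of Ptgfr, Sfrp4 and Runx2 were −1.53, −1.63 and −1.10, with edgeR adjusted p from 0.518 to 0.612.

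Among the hormone receptors, Prlr, through which prolactin maintains luteal cells, had 962 to 1410 CPM in WT and 665 to 993 CPM in 200H (log2 fold change −0.55 ± 0.13, SE; edgeR adjusted p = 0.307, DESeq2 adjusted p = 0.00903). Lhcgr, the receptor for luteinizing hormone, was at 2437, 1662, 2431 and 2526 CPM in WT and 1867, 1422, 1783 and 673 CPM in 200H, with overlapping groups and an adjusted p of 0.594. None of the 18 luteal genes with a promoter in the table held the letters CAAGGTCA, a site for the steroidogenic factors of the NR5A family, within the 300 bases searched, where 1.76% of all genes did. At so low a share an absence among 18 genes tells little. Only this spelling was searched, and Scarb1, Sfrp4 and Star had no promoter in the table.

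The luteal values in the other ovary groups are set beside these. In older ovaries the median over the same 21 genes was 0.07, 10 of 21 were below 0 (45.5% of all genes were), and none was lower or higher at an unadjusted p under 0.05, where 3.52% of all genes were lower and 3.07% higher. For log2 fold changes Scarb1 there had −0.43, Star −0.56, Cyp11a1 −0.24, Akr1c18 0.53 and Sfrp4 0.16, and WT Cyp11a1 alone ranged from 4352 to 13130 CPM. The difference between the young and older effects was not called for any gene by edgeR (0 of 22443, with 1062, or 4.73%, at an unadjusted p under 0.05), and by DESeq2 it was called for 1 gene, Zfp36, an RNA-decay factor of the early response class. In young 200M ovaries the luteal median was −0.70, and 9 of the 21 fell, where 1.70% of all genes did. Akr1c18 fell by 3.49 on the log2 scale, Fdx1 by 0.996 and Cyp11a1 by 0.688, while Ptgfr had −2.60 (edgeR adjusted p = 0.0505), Star −1.52 (0.0559) and Lhcgr −0.18 (0.755). As 200H and 200M were set against the same 4 WT libraries, these values share the error of that group. The 200M libraries were not alike: Sfrp4 was at 237 CPM in replicate 2 and 7.06 to 10.5 CPM in the others. Ptgfr was at 102 CPM against 7.13 to 7.39 CPM, and Akr1c18 at 24.75 CPM against 0.46 to 0.739 CPM. For Lhcgr replicate 2 lay within the range of the others. Per a legend of the study, a 200M mouse of this group had corpora lutea detected in its other ovary. The labels do not say which library it gave. Of the 20 genes of smallest p in 200H, 19 were called in 200M with the shared WT group, where 2.58% of all genes were.

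**Figure D4:**
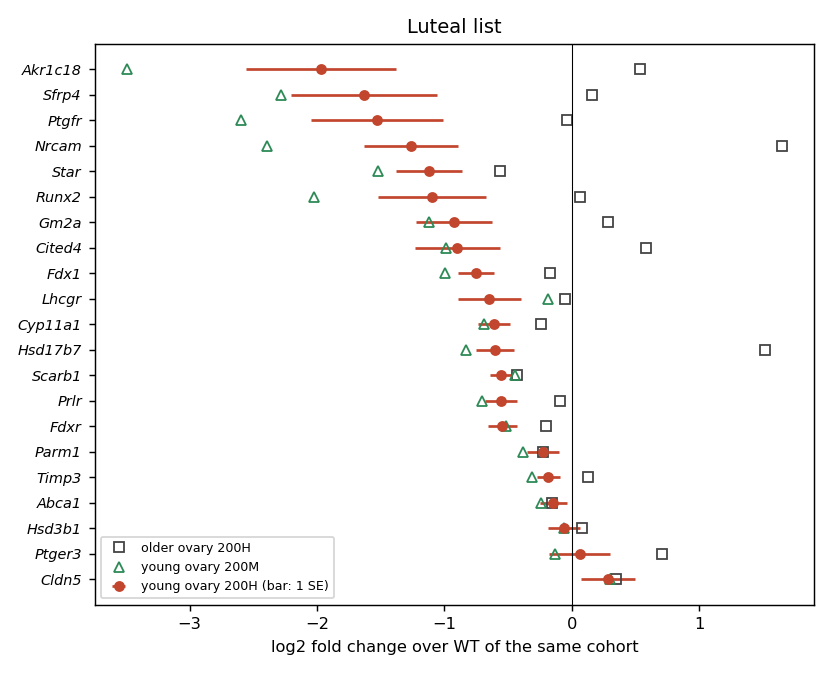
Log2 fold changes over WT for the 21 luteal genes tested in young ovary 200H (red, with 1 SE), older ovary 200H (open squares) and young ovary 200M (open triangles). The young 200H values run from −1.97 to 0.28, and the older 200H values lie on both sides of 0.

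Across all genes the young and older 200H effects were weakly related. Over 11561 genes with a mean of at least 50 reads in both cohorts, Pearson's r of the log2 fold changes was 0.07 and Spearman's rho 0.03, across genes that are not independent. Of 729 genes lower in young 200H at an unadjusted p under 0.05 and tested in both, 445 (61.0%) were below 0 in older ovaries, where 45.2% of all genes tested in both were. Of 494 higher in young 200H, 288 (58.3%) were above 0 in older ovaries, against 54.8% of all. The calls of DESeq2, 95 in young and 23 (0.131%) in older ovaries, shared 2 genes, Sectm1b and Sc5d, a cholesterol synthesis enzyme, both lower in each cohort (2.11% of the young and 8.70% of the older calls). By edgeR no gene was called in older ovaries (0 of 17605), and 1160 (6.59%) were at an unadjusted p under 0.05.

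Of 27 granulosa and follicle genes tested, the median was 0.00, with 3 higher (11.1%) and 1 lower (3.7%) at an unadjusted p under 0.05. Over all genes 3.09% were higher and 3.97% lower. Esr2, the estrogen receptor of granulosa cells, was 1 of the 21 genes that DESeq2 called higher, at 170 to 238 CPM in WT and 262 to 452 CPM in 200H, a log2 fold change of 0.66 ± 0.16 (SE; DESeq2 adjusted p = 0.011, edgeR 0.309). Esr2 had a log2 fold change of −0.09 in older ovaries. Fshr, Cyp19a1 and Amh, the follicle-stimulating hormone receptor, aromatase and anti-Müllerian hormone, had log2 fold changes of −0.24, −0.46 and 0.12 with overlapping groups. The inhibin subunit genes Inha and Inhba had −0.05 and −0.06, and 200H replicate 4 was the lowest library for each (450 and 451 CPM). Gja1, a gap junction gene of granulosa cells, had 0.10.

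Of 26 oocyte genes tested, 24 had a log2 fold change above 0 (47.4% of all genes were below 0) and the median was 0.28, with Kit and Zp3 at an unadjusted p under 0.05. Both were higher in 200H, which is 7.69% of the list against 3.09% of all genes. Without 200H replicate 1 the median was 0.09. Kit, a receptor on oocytes, was at 90.6, 86.5, 74.7 and 85.8 CPM in WT and 116, 97.2, 184 and 93.1 CPM in 200H, a separation in which 200H replicate 3 was the highest. Zp3 and Gdf9, an egg coat gene and an oocyte growth factor, overlapped between genotypes (30.4 to 46.2 CPM in WT and 36.8 to 65.6 CPM in 200H for Zp3). Of 28 cell cycle genes, 25 were above 0, the median was 0.21, and 4 were higher at an unadjusted p under 0.05, Cenpe, Cenpf, Bub1 and Cdc20, where 3.09% of all genes were. Without 200H replicate 1 the median was 0.05, and without WT replicate 1 it was 0.12. Mki67, the proliferation marker, had 0.26 with overlapping groups. The 200H replicate 1 library had the largest summed CPM in the granulosa (11010), oocyte (944) and cell cycle (1365) lists.

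The 23 tested genes of the ovulatory response to luteinizing hormone had a median of −0.17, with Star, Timp1, Adamts4 and Cebpb lower at an unadjusted p under 0.05. These are 17.4% of the list, against 3.97% of all genes. Pgr and Ptgs2, the progesterone receptor and cyclooxygenase that the hormone surge induces, had −0.17 and 0.49, with Ptgs2 at 1.39 to 4.71 CPM in all 8 libraries. Vcan, a matrix proteoglycan of the ovulating follicle, had −0.24. Among 20 theca and interstitial genes the median was −0.04. At an unadjusted p under 0.05, 3 (15.0%) were lower, Lhcgr among them, and 1 (5.0%), Insl3, was higher. Over all genes 3.97% were lower and 3.09% higher. Cyp17a1, the androgen-making enzyme of theca, varied between libraries by more than it did between genotypes (112 to 273 CPM in WT, 58.9 to 378 CPM in 200H). Insl3, a theca hormone, had 4.87 to 6.45 CPM in WT and 5.18 to 11.4 CPM in 200H. The 28 cholesterol genes had a median of −0.04 with 17 below 0, where 47.4% of all genes were. Lower at an unadjusted p under 0.05 were 4 (14.3%, against 3.97% of all genes), Scarb1, Sc5d, Hsd17b7 and Dhcr7. Soat1, which esterifies cholesterol, had −0.08. The 17 immediate early genes tested had a median of −0.08. At an unadjusted p under 0.05, Jun and Nr4a3 were lower (11.8% of the list, against 3.97% of all genes). Egr1, at 0.35, was higher (5.88%, against 3.09% of all genes). DESeq2 called Jun lower, where 0.377% of all genes were.

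Markers of tissues and cells beside the ovary proper were summed in each library. Oviduct markers were at 643 to 1166 CPM in WT and 235 to 1152 CPM in 200H, where the 235 CPM was 200H replicate 1. Ovgp1, the oviduct glycoprotein, was at 11.9 CPM in that library and at 205 to 524 CPM in the other 3. Surface epithelium markers were at 639 to 703 CPM in WT and 397 to 636 CPM in 200H, without overlap, and 12 of 12 tested had a log2 fold change below 0 (median −0.27, and −0.14 without 200H replicate 1). Over all genes 47.4% were below 0. DESeq2 called 2 of the surface epithelium markers lower, Aldh1a2 and Upk1b, where 0.377% of all genes were. The part of these markers in the luteal and epithelial values was not tested. Adipocyte markers were at 490 to 808 CPM in WT and 380 to 616 CPM in 200H, and 3 of 13 tested, Plin4, Pck1 and Cfd, were lower at an unadjusted p under 0.05, where 3.97% of all genes were. Leukocyte markers were at 527 to 689 CPM and 300 to 658 CPM, with 1 of 16, H2-Aa, lower in that sense. Endothelial markers (median −0.03 over 17 tested genes), erythrocyte markers (0.32 over 4 tested genes) and muscle markers (0.04 over 11) had no member at an unadjusted p under 0.05.

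**Figure D5:**
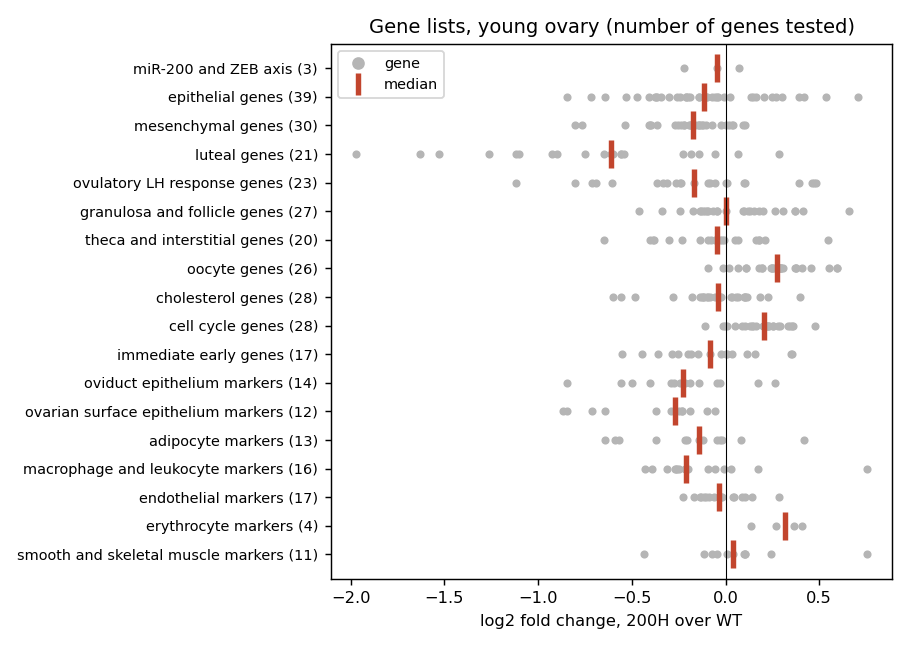
Log2 fold changes of 200H over WT in young ovary for the tested genes of each list (grey points) with the list median (red bar) and the number tested in parentheses. The luteal median is at −0.61 and the other medians lie between −0.27 and 0.32.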

How the data were processed

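Per the labels and methods, the authors depleted ribosomal RNA, sequenced stranded paired-end libraries, aligned reads with STAR 2.7.1a to mm10 and counted them per gene with featureCounts, and deposited raw counts beside their own DESeq2 1.38.3 comparisons (fold changes and p-values, not used here). The older ovary libraries were poly(A)-selected, unstranded and single-end. Counts were taken as deposited. Genes passing edgeR's filterByExpr were fitted for each pair of groups with edgeR 4.0.16 (TMM, quasi-likelihood F test, Benjamini-Hochberg adjustment, threshold 0.05), and interactions used 4 groups. CPM used TMM factors over all libraries read here of a tissue and cohort. DESeq2 1.42.0, its size factors, no filter, a CPM minimum of 1, all 12 young ovary libraries, a replicate block and leaving out each library were alternatives. The p-values rest on the spread between mice, except that without the filter each gene was given the spread of the trend. The tissue interactions treat libraries as separate mice, and the labels do not say whether the tissues share animals. The fitting scripts were tested on simulated data. No pair of libraries agreed within sampling noise. Gene positions come from the GENCODE annotation of GRCm38. The gene lists and comparisons were chosen with earlier results of these data known. Named genes were those called, the genes of smallest p up to 20, a fixed set of markers and, per list, called members or the most abundant one; other list members were named after their values were seen. From 18 deposited tables, the count columns of 5 were used.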

Additional observations from a re-analysis of the deposited data

Results flagged for a closer look

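In groups of 4 libraries, 162 sets of values were examined for 1 library far from the other 3, and 7 were found, where chance gives about 1 in 20. The gap of that library to its neighbour as a share of the group's range was 0.879 for Chst11 in 200H (replicate 4 at 150.5 CPM, the others at 187 to 192 CPM), 0.836 for Gm15884 in 200H, 0.89 for Lhcgr in WT (replicate 2 at 1662 CPM), 0.837 for Soat1 in WT and 0.858 for Mki67 in WT (replicate 1 at 151 CPM). For summed lists it was 0.902 for luteal genes and 0.842 for theca and interstitial genes, both in 200H replicate 4, at 6971 and 6955 CPM against at least 9412 and 10070 CPM in the other 200H libraries. Both lists hold Lhcgr.

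The 200H effect differed between young pituitary and young ovary for 18 of 63 named genes by the interaction test (edgeR adjusted p under 0.05; 2.26% of 22698 genes did). Many of the 18 were named for a small p in these ovary libraries, whose effect is part of the difference. Others were fixed in advance with earlier results of these data known. The count of 18 therefore describes the named genes and does not test them. The effect was higher in pituitary, in log2 units, for Sectm1b (3.97), Epdr1 (1.98), Mapkapk3 (1.28), Slc25a30 (1.07), Acsl4 (0.991), Fdx1 (0.904), Rbm47 (0.794), Scarb1 (0.763), Vcan (0.756), Abhd2 (0.651), Zeb1 (0.503) and Bzw1 (0.481). It was lower in pituitary for Esrp1 (−3.16), Rab25 (−3.04), Gm13648 (−2.44), Epcam (−1.82), Mki67 (−1.54) and Kit (−0.928). Some genes of smallest p in ovary were called in 200H pituitary in the same direction. These were Tmem86a (log2 fold change −0.86), Chst11 (−0.71) and Mpp3 (0.92). Called there in the other direction were Sectm1b (1.95), Epdr1 (1.08) and Acsl4 (0.46). Of all genes 12.3% were called in that pituitary comparison (edgeR). The labels do not say whether the ovary and pituitary libraries share animals.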

How the results depend on the processing

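The number of genes called between 200H and WT young ovaries, 1 by edgeR, was 95 with DESeq2, 241 of 51564 without the filter on low counts (200 lowered, 62 of the 241 also called by DESeq2, 240 of them tested with the filter too), 0 with a replicate block, and 0 to 9 with 1 library left out. It was 9 without 200H replicate 1 (among them Tmem86a, Scarb1, Fdx1 and Cyp11a1), 4 without WT replicate 2 and 0 without any of the other 6, where Sectm1b lost its call. Sectm1b also lost it under the block (adjusted p = 0.195). The deviations of same-numbered WT and 200H libraries from their group means had correlations of −0.173, −0.313, −0.456 and 0.272. These few values, of both signs, cannot settle whether the numbers pair the libraries. The tissue comparison could not be fitted with a block because the replicate number of a pituitary WT column matches no sample label. The count of genes at an unadjusted p under 0.05 was 946 to 1893 with 1 library left out and 2930 without the filter.

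In older ovaries the called count of 0 became 23 with DESeq2, 1 (Egr1) without the filter, and stayed at 0 to 0 with a library left out. The young-against-older count of 0 became 1 with DESeq2 and was 0 to 0 with a library left out. Luteal genes lower at an unadjusted p under 0.05 numbered 12 to 16 over all alternatives in young ovaries, and in older ovaries 1 under the block and 0 to 2 with a library left out. The luteal median lay between −0.68 and −0.55 with a library left out, and that of the ZEB axis, over 3 genes, between −0.25 and −0.0035. Epithelial (−0.27 to 0.01), oocyte (0.09 to 0.40), cell cycle (0.05 to 0.27), surface epithelium (−0.40 to −0.14) and oviduct (−0.49 to 0.13) medians also moved with a library left out, and 200H replicate 1 gave the end nearest to 0 or past it for each of them. Without the filter the prior degrees of freedom of the fit rose from 6.11 to infinity, and edgeR then called 15 luteal genes, 4 surface epithelium genes and 3 epithelial genes (Epcam, Krt7 and Rbm47), all lower. The median of miR-200a and miR-141 site genes was −0.035 without the filter. The difference of Zeb1 between tissues was 0.44 to 0.54 with a library left out, and lost its call without that pituitary WT library (0.52).

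Small differences changed sign. Gm13648 had −0.038 and Cyp17a1 −0.19 under the block, and Cdh5 −0.0041 and Acta2 −0.0034 without the filter. With 1 library left out the log2 fold change ranged from −0.25 to 0.37 for Gm13648, −0.67 to 0.051 for Rab25, −0.16 to 0.059 for Hsd3b1, −0.67 to 0.42 for Cyp17a1, −0.025 to 0.30 for Amh, −0.28 to 0.13 for Inha, −0.27 to 0.23 for Inhba, −0.44 to 0.066 for Pgr, −0.038 to 0.21 for Gja1, −0.14 to 0.017 for Soat1, −0.42 to 0.37 for Ovgp1, −0.36 to 0.020 for Car3, −0.012 to 0.082 for Cdh5, −0.055 to 0.47 for Hbb-bs and −0.041 to 0.12 for Acta2. The cause of these changes was not tested.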
